A study of Mus musculus with 6 samples.

Results

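The 10 genes described here are the receptors *Notch1*, *Notch2*, *Notch3* and *Notch4*, the ligands *Jag1* and *Jag2*, and the target genes *Hes1*, *Hey1*, *Hey2* and *Heyl*, chosen by name from the 25140 genes of the count table. RNA-seq of polyadenylated mRNA was performed in primary cardiac fibroblasts of C57BL/6 mice, isolated from adult hearts and used at passage 1. After 16 h in medium with 1% FBS, 3 cultures received vehicle and 3 received TGFβ at 10 ng/ml, both for 24 h, to follow gene expression during myofibroblast differentiation. The groups differed in TGFβ alone and carried no transgene or deletion. The study describes 3 biological replicates but not whether each came from a separate animal, so p-values cover the spread between these libraries. The labels and the methods name cardiac fibroblasts, whereas the results text of the study speaks of embryonic fibroblasts for the same experiment. The 16 h in low serum come from the sample records, whereas the general methods of the study give 24 h before treatment.

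Notch receptors are single-pass membrane proteins that are activated by ligands of the Delta and Jagged families on a neighbouring cell. Ligand binding exposes the receptor to an ADAM protease and then to γ-secretase, which frees the intracellular domain. This domain enters the nucleus, joins the DNA-binding protein RBPJ and a Mastermind coactivator, and turns on genes of the HES and HEY families, which encode transcriptional repressors. In the heart, Notch signalling is known for its roles in valve, vessel and trabecular development, and *Notch3* for its expression in mural cells, *Notch4* for its expression in endothelium.

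The libraries held between 27851677 and 31072338 counts, and each is named below by its group and its total count. Markers of the labelled cell type were present: all 10 cardiac fibroblast markers were counted in every library, with a summed level of 34968 to 39983 CPM with vehicle and 38924 to 42479 CPM with TGFβ, most of it from *Col1a1* and *Col1a2*. Of these 10 markers, 6 were lower with TGFβ (*Pdgfra*, *Tcf21*, *Lum*, *Tbx20*, *Dcn* and *Thy1*) and the other 4 did not pass, with a median log2 fold change of -0.44. The cardiac transcription factor gene *Tbx20*, for example, went from 605 ± 72.8 to 419 ± 20.1 CPM (SD of 3 libraries, log2 fold change -0.53, edgeR adjusted p = 0.00251). The part of this fall in the changes of the Notch genes was not tested. CPM values are counts scaled by TMM library size, as edgeR gives them. Of the 7 TGFβ response genes in the table, 5 rose, among them *Postn* and *Acta2*. Across all 14334 genes tested, 40.7% passed an adjusted p of 0.05 (quasi-likelihood test of edgeR, adjusted by Benjamini-Hochberg over all of them), 20.5% higher and 20.1% lower with TGFβ. The vehicle and TGFβ libraries did not overlap for 53.3% of the genes.

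The response of the Notch genes to TGFβ was uneven among the receptors and among the targets. *Notch3* fell while *Notch4* rose. Per kilobase of merged exons, *Notch3* led the receptors in vehicle cultures. In TGFβ cultures *Notch4* and *Notch2* led, with libraries that overlapped for this length but not for that of the longest transcript. Among the targets *Heyl* rose and *Hey2* fell, while *Hes1* and *Hey1* did not pass the test. Of the 10 genes, 2 were higher (*Notch4* and *Heyl*), 4 were lower (*Notch1*, *Notch3*, *Jag2* and *Hey2*) and 4 did not pass, a called share of 60% against the 40.7% of all genes. The groups of libraries did not overlap for these 6 genes, against 53.3% of all genes. All 10 genes passed the filter on low counts.

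**Figure D1:**
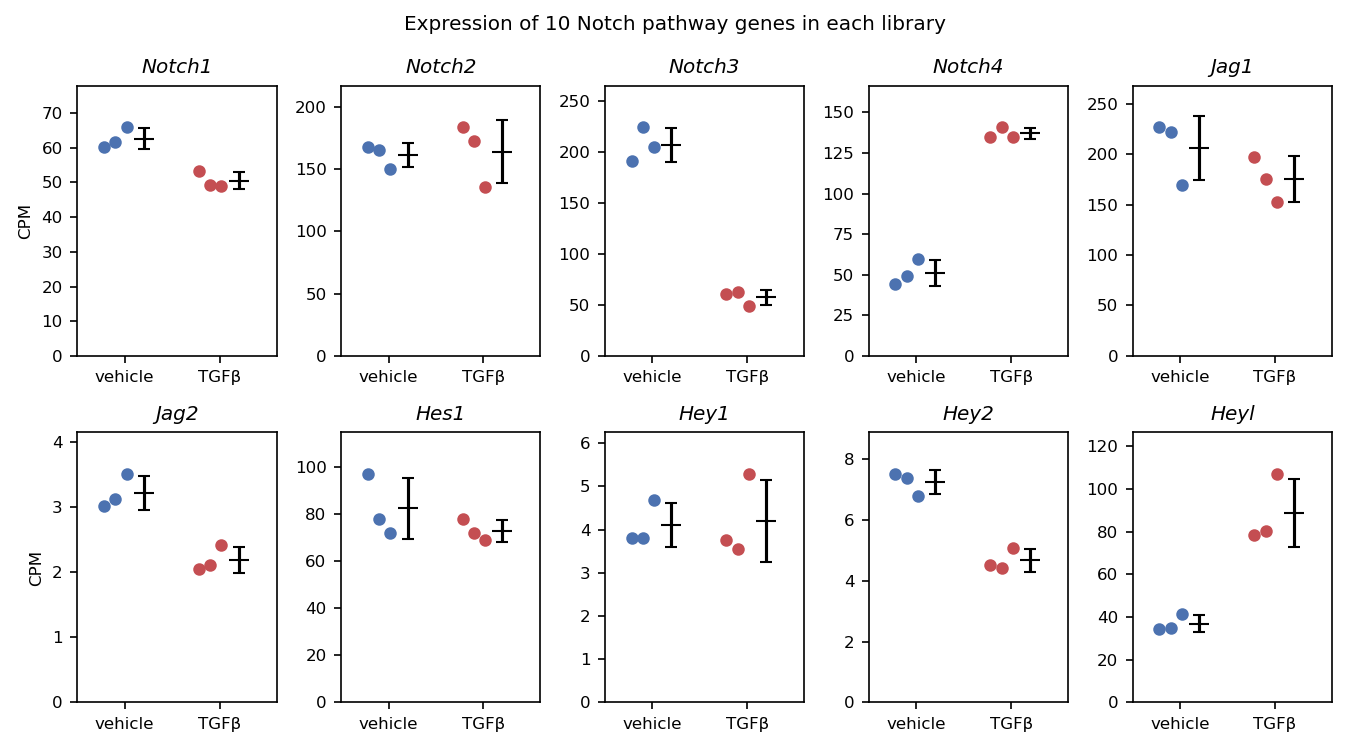
Expression of the 10 Notch genes in CPM (vertical axes, starting at 0) in the 3 vehicle (blue) and 3 TGFβ libraries (red), each point a library; the horizontal mark and bar are the mean and SD. The TGFβ points of *Notch3* lie between 48.7 and 63.0 CPM, below all vehicle points, and those of *Notch4* between 135 and 141 CPM, above all vehicle points.

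Promoter sequences are shown for the genes that changed most among those with an entry, *Notch3*, *Notch4* and *Hey2*, and were searched for short sequences known to be bound by RBPJ and by SMAD proteins, the transcription factors downstream of TGFβ. Each window covers 250 bases before to 50 bases after the gene start (RefSeq, build GRCm38.p6, 5′ to 3′ on the gene's strand). Of the 10 genes, 7 had an entry, and the target genes *Hes1*, *Hey1* and *Heyl* had none. The capitals mark matches on either strand to TGGGAA, the core bound by RBPJ, or to CAGAC, a SMAD-binding sequence, whose reverse complements are TTCCCA and GTCTG. *Hey2* lies at chr10:30842734-30843033 on the minus strand, *Notch3* at chr17:32166841-32167140 on the minus strand and *Notch4* at chr17:34564045-34564344 on the plus strand.
Hey2: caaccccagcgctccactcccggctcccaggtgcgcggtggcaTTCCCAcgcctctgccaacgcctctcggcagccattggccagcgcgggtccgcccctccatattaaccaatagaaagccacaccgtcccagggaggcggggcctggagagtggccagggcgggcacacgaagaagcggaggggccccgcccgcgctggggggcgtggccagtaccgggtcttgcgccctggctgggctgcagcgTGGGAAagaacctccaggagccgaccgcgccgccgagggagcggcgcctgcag
Notch3: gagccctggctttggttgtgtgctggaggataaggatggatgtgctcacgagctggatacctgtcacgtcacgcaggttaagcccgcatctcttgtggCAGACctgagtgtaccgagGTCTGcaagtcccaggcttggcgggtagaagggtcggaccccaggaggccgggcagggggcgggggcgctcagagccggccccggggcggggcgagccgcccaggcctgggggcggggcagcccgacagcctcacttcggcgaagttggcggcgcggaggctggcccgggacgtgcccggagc
Notch4: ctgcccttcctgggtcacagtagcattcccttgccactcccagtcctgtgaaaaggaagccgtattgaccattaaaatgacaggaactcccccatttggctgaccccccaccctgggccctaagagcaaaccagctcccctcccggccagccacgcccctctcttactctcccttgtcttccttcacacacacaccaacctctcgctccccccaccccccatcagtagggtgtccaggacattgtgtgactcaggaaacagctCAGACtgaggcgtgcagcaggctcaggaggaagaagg
The *Hey2* window holds TGGGAA 2 times, starting 3 and 207 bases before the gene start and in opposite orientations. The *Notch3* window holds CAGAC 2 times, starting 152 and 133 bases before the gene start, and the *Notch4* window once, starting at base 14 of the transcript.

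Such matches are common. Over the 32851 promoters of the table, 25.6% hold TGGGAA, 1.86% hold the longer TGTGGGAA, which contains it, 49.6% hold CAGAC and 7.15% hold CACGTG, the E-box that HES and HEY proteins can bind. Of the 7 Notch gene promoters, 1 held TGGGAA (*Hey2*), 3 held CAGAC (*Notch3*, *Notch4* and *Jag1*) and 0 held TGTGGGAA or CACGTG. *Hey2* was the only target gene among them, so the promoters of *Hes1*, *Hey1* and *Heyl* were not searched. Whether any of these sequences is bound in these cells was not tested.

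*Notch3* (ENSMUSG00000038146; chromosome 17, 32120820 to 32166852, minus strand) had the largest change of the 10 genes. The vehicle libraries counted 6078, 6650 and 6102 reads and the TGFβ libraries 1649, 1758 and 1388. Every TGFβ library lay well below every vehicle library. From 207 ± 16.7 CPM in vehicle cultures the mean dropped 3.61-fold to 57.3 ± 7.58 CPM under TGFβ (± SD, n = 3 each). This gave a log2 fold change of -1.85 (SE 0.10, 95% confidence interval -2.09 to -1.61, edgeR adjusted p = 1.58e-05). Across all genes ranked by level per length, *Notch3* moved from a mean percentile of 87.6 to 62.2.

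*Notch4* (ENSMUSG00000015468; chromosome 17, 34564268 to 34588503, plus strand) moved the other way. Its counts were 1403, 1458 and 1777 with vehicle and 3695, 3935 and 3853 with TGFβ. The groups did not overlap, and the TGFβ libraries were closer to each other than the vehicle libraries were. Mean CPM rose 2.69-fold, from 50.9 ± 7.89 to 137 ± 3.35 (± SD of 3 libraries), for a log2 fold change of 1.43 (SE 0.10, interval 1.20 to 1.66, edgeR adjusted p = 4.17e-05). Its mean percentile rose from 59.4 to 81.2.

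*Notch1* (ENSMUSG00000026923; chromosome 2, 26457903 to 26516663, minus strand), the best known receptor of the family, fell by a smaller amount. It had 1916, 1831 and 1966 counts with vehicle and 1457, 1376 and 1398 with TGFβ, with no overlap. This was a log2 fold change of -0.31 (SE 0.05, interval -0.43 to -0.19, edgeR adjusted p = 0.00258). *Notch2* (ENSMUSG00000027878; chromosome 3, 98013527 to 98150361, plus strand) had 5349, 4908 and 4487 counts with vehicle and 5029, 4834 and 3867 with TGFβ. Its groups overlapped, and its log2 fold change of 0.03 had an interval of -0.22 to 0.27 (edgeR adjusted p = 0.873), so changes within that interval were not resolved. Of the 75-base windows of the *Notch2* transcript, 3.15% also occur in transcripts of other genes. This share was 0% for the other Notch genes described here.

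Levels of different genes were compared per length, as CPM per kilobase of merged exons. With vehicle the receptors ranked *Notch3* (25.5 CPM per kilobase), *Notch2* (15.0), *Notch4* (6.32) and *Notch1* (4.40), with no overlap between neighbours in that order. With TGFβ the order was *Notch4* (17.0 CPM per kilobase), *Notch2* (15.2), *Notch3* (7.08) and *Notch1* (3.55). The libraries of *Notch4* and *Notch2* overlapped there, and those of the other neighbours did not. With the length of the longest transcript in place of merged exons, the TGFβ libraries of *Notch4* lay above those of *Notch2* without overlap. With that length the vehicle libraries of *Notch4* and *Notch1* overlapped, so their separation with vehicle depended on the length used.

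As a share of the summed receptor level per length, *Notch3* made up 49.8 ± 1.81% (SD, n = 3) with vehicle and 16.5 ± 0.938% with TGFβ. The share of *Notch4* went from 12.3 ± 1.81% to 39.8 ± 3.06%. *Notch2*, whose own level did not pass the test, held 29.3 ± 2.38% with vehicle and 35.4 ± 2.77% with TGFβ, without overlap. With the length of the longest transcript in place of merged exons the difference in the *Notch2* share was 4.10 rather than 6.12 percentage points and the exact permutation p was 0.2, so this separation depended on the length used. The share of *Notch1* was 8.60 ± 0.466% and 8.31 ± 0.573%, with overlap. The ratio of *Notch3* to *Notch4* per length was 4.09 ± 0.594 with vehicle and 0.416 ± 0.0496 with TGFβ. The sum of the 4 receptors was 51.2 ± 2.30 CPM per kilobase with vehicle and 42.9 ± 3.51 with TGFβ, again without overlap. For each of these measures that did not overlap, the two-sided exact permutation test gave p = 0.1, the smallest that 3 libraries against 3 allow, and 0.164 after Benjamini-Hochberg adjustment over the 18 shares, sums and ratios compared.

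**Figure D2:**
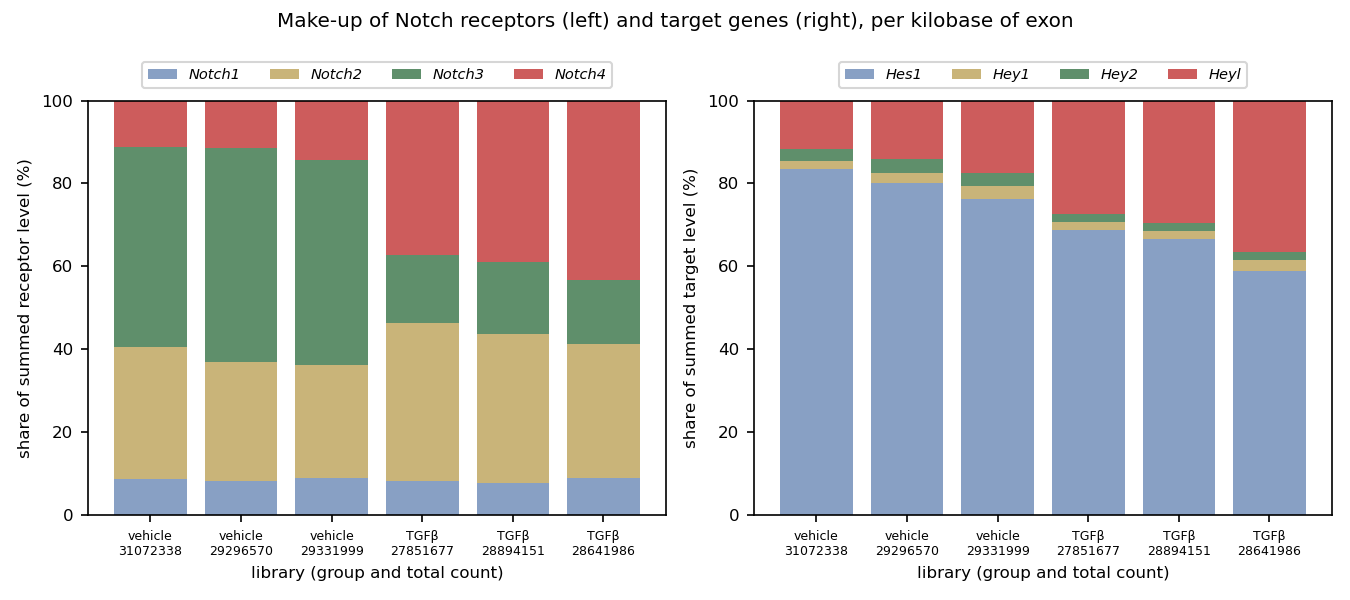
Make-up of the 4 Notch receptors (left) and of the 4 target genes (right) in each library, as a percentage of their summed level per kilobase of exon (vertical axes); each bar is a library, named by group and total count. *Notch3* takes 48.3 to 51.8% of the receptor level in vehicle and 15.5 to 17.4% in TGFβ libraries, and *Heyl* takes 11.7 to 17.4% of the target level in vehicle and 27.5 to 36.4% in TGFβ libraries.

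Among the ligands, *Jag1* was the abundant one and *Jag2* the rare one. *Jag1* (ENSMUSG00000027276; chromosome 2, 137081456 to 137116644, minus strand) stood at 35.4 ± 5.48 CPM per kilobase with vehicle and 30.1 ± 3.85 with TGFβ (SD, n = 3). It accounted for 98.7% and 98.9% of the summed level of both Jagged genes, so the summed ligand level followed it. Counts of *Jag1* were 7215, 6586 and 5047 with vehicle and 5406, 4896 and 4354 with TGFβ. The groups overlapped through the vehicle library of 29331999 counts, at 169 CPM. The log2 fold change was -0.23 (SE 0.13, interval -0.53 to 0.06, edgeR adjusted p = 0.186). Without that library it was -0.36 with an edgeR adjusted p of 0.0301.

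*Jag2* (ENSMUSG00000002799; chromosome 12, 112907819 to 112929776, minus strand) had 96, 93 and 105 counts with vehicle and 56, 59 and 69 with TGFβ, with no overlap. Mean CPM fell from 3.22 ± 0.263 to 2.19 ± 0.199 (± SD of 3 libraries), which is -0.55 on the log2 scale (SE 0.14, interval -0.87 to -0.23, edgeR adjusted p = 0.0147). The call was lost without the TGFβ library of 27851677 counts (edgeR adjusted p = 0.0529) or without that of 28894151 counts (0.0507). The share of *Jag2* in the Jagged level was 1.33 ± 0.335% with vehicle and 1.06 ± 0.230% with TGFβ, with overlap.

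Among the targets, *Heyl* (ENSMUSG00000032744; chromosome 4, 123233556 to 123249875, plus strand), a HEY family repressor expressed in vascular smooth muscle, rose. Its counts were 1094, 1028 and 1233 with vehicle and 2141, 2247 and 3054 with TGFβ. All TGFβ libraries lay above all vehicle libraries, and the TGFβ library of 28641986 counts was the highest. Mean CPM was 36.8 ± 3.94 in vehicle and 88.6 ± 16.1 in TGFβ libraries (± SD, n = 3 each), 2.41-fold higher, a log2 fold change of 1.27 (SE 0.13, interval 0.97 to 1.57, edgeR adjusted p = 0.00026). Without the highest library the log2 fold change was 1.10.

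*Hey2* (ENSMUSG00000019789; chromosome 10, 30832359 to 30842801, minus strand), a HEY repressor of ventricular and arterial identity, fell. It had 239, 219 and 202 counts with vehicle and 123, 123 and 145 with TGFβ. The groups did not overlap. Its log2 fold change was -0.63 (SE 0.10, interval -0.86 to -0.40, edgeR adjusted p = 0.00195), from 7.22 ± 0.395 to 4.66 ± 0.370 CPM (SD, n = 3 each). This is the gene with TGGGAA in both orientations in the window shown above.

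*Hes1* (ENSMUSG00000022528; chromosome 16, 30064384 to 30067796, plus strand), the most widely used readout of Notch activity, was the most abundant of the 10 genes per length in both groups. It stood at 40.5 ± 6.45 CPM per kilobase with vehicle and 35.8 ± 2.25 with TGFβ (SD, n = 3), and its libraries overlapped with those of *Jag1*, the next in order. With the length of the longest transcript in place of merged exons, the *Hes1* libraries lay above those of *Jag1* without overlap in both groups. Its counts were 3095, 2313 and 2153 with vehicle and 2131, 2008 and 1964 with TGFβ. The groups overlapped, with 1 vehicle library, that of 31072338 counts, above the rest. On the log2 scale the fold change was -0.18 (interval -0.43 to 0.07, edgeR adjusted p = 0.221), and -0.04 without that library.

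*Hey1* (ENSMUSG00000040289; chromosome 3, 8663359 to 8667256, minus strand), a HEY repressor of endothelial and endocardial cells, had 121, 113 and 140 counts with vehicle and 103, 99 and 151 with TGFβ. The highest library of each group lay well above its other libraries, and the groups overlapped. Its log2 fold change of 0.04 had a wide interval, -0.38 to 0.45 (edgeR adjusted p = 0.89), so a change of that size in either direction was not resolved.

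**Figure D3:**
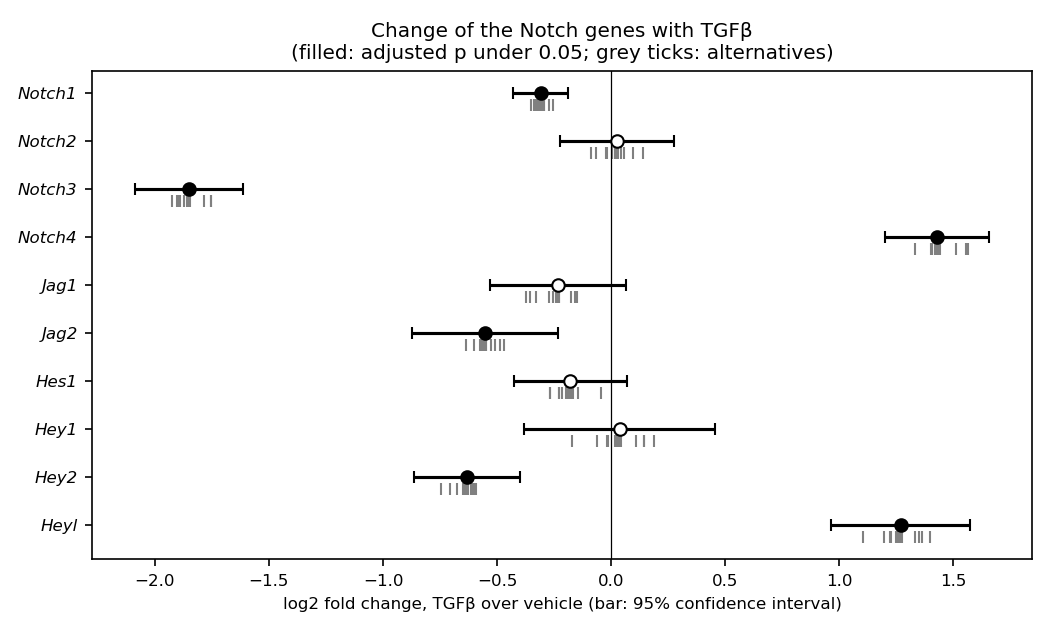
Log2 fold change of TGFβ over vehicle (horizontal axis) for the 10 Notch genes from edgeR, with 95% confidence intervals as bars; filled points passed an adjusted p of 0.05, and grey ticks show the values under each of the 14 alternatives. The intervals of *Notch3* (-2.09 to -1.61) and *Notch4* (1.20 to 1.66) lie far from 0 on opposite sides, and those of *Notch2*, *Jag1*, *Hes1* and *Hey1* include 0.

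The groups of libraries differed in the make-up of the targets, with *Heyl* higher and the level of *Hes1* itself not passing the test. Per length, *Hes1* held 79.9 ± 3.53% of the summed target level with vehicle and 64.7 ± 5.18% with TGFβ (SD, n = 3). *Heyl* held 14.4 ± 2.85% and 31.2 ± 4.67%, *Hey2* 3.13 ± 0.256% and 1.83 ± 0.0863%, each without overlap. *Hey1* held 2.52 ± 0.536% and 2.31 ± 0.441%, with overlap. The ratio of *Heyl* to *Hey2* per length was 4.60 ± 0.763 with vehicle and 17.0 ± 1.72 with TGFβ, and that of *Heyl* to *Hes1* 0.182 ± 0.0439 and 0.489 ± 0.116. For the measures without overlap the exact permutation p was 0.1, the smallest possible. Benjamini-Hochberg adjustment over the 18 shares, sums and ratios compared gave 0.164. The summed target level was 50.5 ± 5.89 CPM per kilobase with vehicle and 55.4 ± 2.22 with TGFβ, with overlap (exact permutation test, p = 0.3).

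The rest of the pathway was read from a list of 52 genes, of which 51 were in the table and 46 were tested. Of these, 23 passed, 12 higher and 11 lower, or 50.0% against the 40.7% of all genes. Their median log2 fold change was -0.01, beside -0.0013 over all genes tested. Of the 46, 30 had groups that did not overlap, beside 53.3% of all genes. Counts by role, given below, stand beside 20.5% of all genes higher and 20.1% lower, rest on few genes each and were not tested as groups. The called changes ran from -1.90 to 1.64 on the log2 scale, and 10 were at least 0.5 in size.

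Among the other ligand genes, 1 of 4 tested passed. With the endothelial covariate described below 3 passed, *Dner* and *Dll4* higher and *Dlk1* lower. *Dner*, which encodes a neuronal membrane protein with EGF repeats described as a Notch ligand, rose from 5.03, 5.66 and 3.39 CPM to 14.5, 20.8 and 8.59 CPM, without overlap (log2 fold change 1.64, SE 0.32, edgeR adjusted p = 0.00542). *Dll4*, the Delta ligand of arterial and sprouting endothelium, had a log2 fold change of 0.05 (edgeR adjusted p = 0.939) and is named after its values were seen. It stood at 14.3, 15.7 and 31.2 CPM with vehicle and 14.8, 15.8 and 32.5 CPM with TGFβ, with 1 library in each group at a much higher level. Of the 14 alternatives, *Dll4* passed only with the endothelial covariate, where it was higher with TGFβ (edgeR adjusted p = 0.00165).

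Of the 10 protease and γ-secretase genes, 2 rose and 3 fell. *Furin* (log2 fold change 0.49, edgeR adjusted p = 0.000453) and *Adam10* (0.23, edgeR adjusted p = 0.016) were the higher ones. The call of *Adam10* was lost in 3 of 14 alternatives. *Adam17*, a protease that sheds membrane proteins, fell from 134 ± 9.75 to 94.5 ± 3.59 CPM (SD, n = 3 each, log2 fold change -0.50, edgeR adjusted p = 0.000531). *Psen2*, a catalytic subunit of γ-secretase, fell from 36.5 ± 1.54 to 25.0 ± 1.06 CPM (log2 fold change -0.55, edgeR adjusted p = 0.000205). *Aph1c*, a further γ-secretase subunit, stood at 2.50 CPM with vehicle and 1.60 with TGFβ (log2 fold change -0.64, edgeR adjusted p = 0.0183). Of its 75-base windows, 12.8% occur in other genes, and its call was lost in 4 of the 6 fits without 1 library, those without the vehicle libraries of 31072338 or 29296570 counts or the TGFβ libraries of 27851677 or 28641986 counts. Without the TGFβ library of 27851677 counts, 3 of the 10 genes were called. The glycosyltransferases that modify the receptors had 2 higher and 1 lower of 5, but 1 called gene without the TGFβ library of 28894151 counts or with DESeq2.

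In the nuclear complex 4 of 7 genes fell and the other 3 did not pass. *Rbpj*, the DNA-binding partner of the Notch intracellular domain, had 48.1, 48.4 and 53.3 CPM with vehicle and 35.2, 34.6 and 35.6 CPM with TGFβ. The groups did not overlap, and the TGFβ libraries lay close together. The log2 fold change of *Rbpj* was -0.51 (SE 0.05, edgeR adjusted p = 0.00024). Of its windows, 21.1% occur in other transcripts, so its counts are less certain. *Kat2b*, an acetyltransferase coactivator, fell from 67.5 ± 3.34 to 43.5 ± 2.92 CPM (log2 fold change -0.63, edgeR adjusted p = 0.000179). The Mastermind genes *Maml1* and *Maml3* were the other genes called, and the call of *Maml1*, with an edgeR adjusted p of 0.0425, was lost in 8 of 14 alternatives.

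Of the 6 corepressors, 4 rose and 1 fell. These 5 calls dropped to 3, all higher, without the vehicle library of 29296570 counts, that of 29331999 counts or the TGFβ library of 28641986 counts. Of the windows of *Hdac1*, 1 of the 4 corepressors that rose, 52.55% occur in other transcripts, so its counts are less certain. Of the 12 genes of endocytosis and turnover, 3 rose and 2 fell. *Fbxw7*, the ubiquitin ligase component that targets the Notch intracellular domain, rose from 16.0 ± 1.04 to 26.7 ± 2.65 CPM (log2 fold change 0.74, edgeR adjusted p = 0.00043). *Dtx4*, a Deltex ubiquitin ligase, fell from 168, 190 and 222 CPM to 44.9, 56.3 and 54.2 CPM, the largest fall of the list (log2 fold change -1.90, SE 0.12, edgeR adjusted p = 2.74e-05). *Neurl1b*, a Neuralized ligase that acts on Notch ligands, fell from 5.31 ± 0.298 to 1.76 ± 0.271 CPM (log2 fold change -1.59, edgeR adjusted p = 0.000131). Of the genes named here for their size, the call of *Aph1c* alone changed in any of 14 alternatives.

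The last group, other HES genes and feedback, had 2 tested genes. *Nrarp*, a direct target that limits Notch signalling and is named after its values were seen, stood at 5.88, 6.84 and 10.8 CPM with vehicle and 3.66, 4.30 and 6.42 CPM with TGFβ. The groups overlapped, and its log2 fold change of -0.71 (SE 0.28) did not pass (edgeR adjusted p = 0.0766). It passed in 6 of 14 alternatives. These were DESeq2, no filter on low counts and both endothelial fits described below. The others were the fits without the vehicle library of 31072338 counts or the TGFβ library of 28641986 counts. *Hes6* had a log2 fold change of 0.04 (edgeR adjusted p = 0.682).

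**Figure D4:**
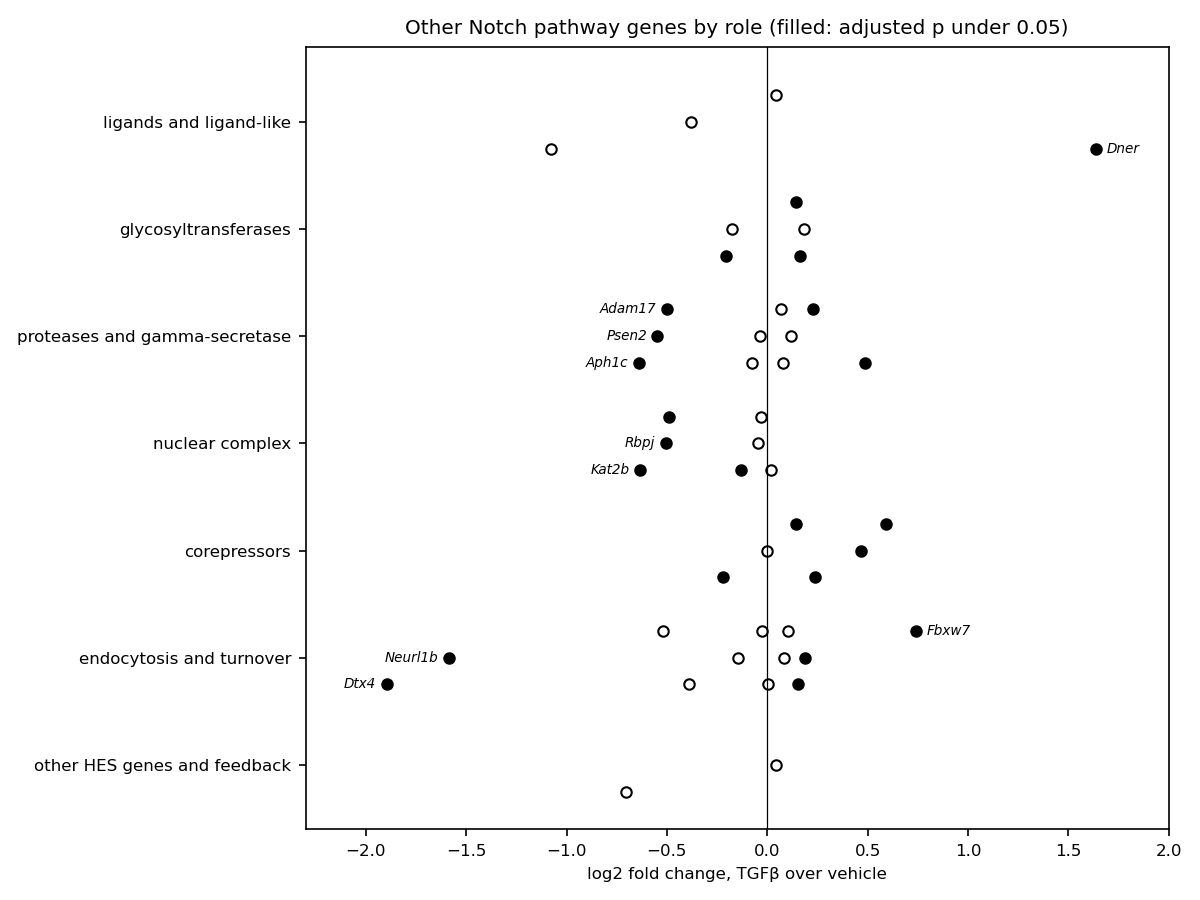
Log2 fold change of TGFβ over vehicle (horizontal axis) for the 46 other Notch pathway genes tested, in rows by role; filled points passed an adjusted p of 0.05 (edgeR), and vertical spread within a row has no meaning. Labels mark genes called with a change of at least 0.5 that the text describes, from *Dtx4* at -1.90 to *Dner* at 1.64, and called genes lie on both sides of 0 in the list as a whole.

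Endothelial cells express *Notch1*, *Notch4*, *Dll4*, *Hey1* and *Hey2*, and their markers were detected in these cultures. All 11 endothelial markers were counted in every library. Their summed level was 500, 567 and 779 CPM with vehicle and 458, 507 and 638 CPM with TGFβ. The library with the highest sum was that of 29331999 counts in the vehicle group and that of 28641986 counts in the TGFβ group. *Tek* went the other way and was lowest in these libraries, at 74.6 and 83.8 CPM, and every other marker was highest in them. Of the 11 markers, 0 passed edgeR's test, 0 had an unadjusted p under 0.05 and 0 passed with DESeq2. Their median log2 fold change was -0.28, with SEs of 0.12 to 0.30 for single markers, so a change of that size was not resolved. Bulk counts cannot tell fewer cells of a type from less RNA per cell.

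The same libraries stood out for several Notch genes. In both groups the library with the highest endothelial sum also had the highest *Dll4*, *Hey1*, *Heyl* and *Jag2* and the lowest *Jag1*, *Notch2* and *Hes1*. For *Notch4* it was the highest with vehicle, at 59.6 CPM, but not with TGFβ, where *Notch4* stood at 135, 141 and 135 CPM. *Notch1* was highest in that library with vehicle (65.9 CPM) but lowest with TGFβ (49.0 CPM). *Hey2* was lowest in it with vehicle (6.77 CPM) but highest with TGFβ (5.09 CPM). *Notch3* lay between the other libraries with vehicle and was lowest with TGFβ (48.7 CPM). A fit without the library of highest endothelial sum in each group was chosen after the data were seen. Its log2 fold change was 1.56 for *Notch4*, -1.76 for *Notch3* and 1.20 for *Heyl*. In this fit 7 of the 10 genes passed, *Jag1* among them (-0.27, edgeR adjusted p = 0.0161), beside 5358 genes in all. With the endothelial level as a covariate, also chosen after the data were seen, 8 of the 10 passed, beside 6310 genes in all. *Jag1* was then at -0.37 (edgeR adjusted p = 0.000328) and *Hes1* at -0.27 (edgeR adjusted p = 0.015). The main fit called 5828 genes in all.

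**Figure D5:**
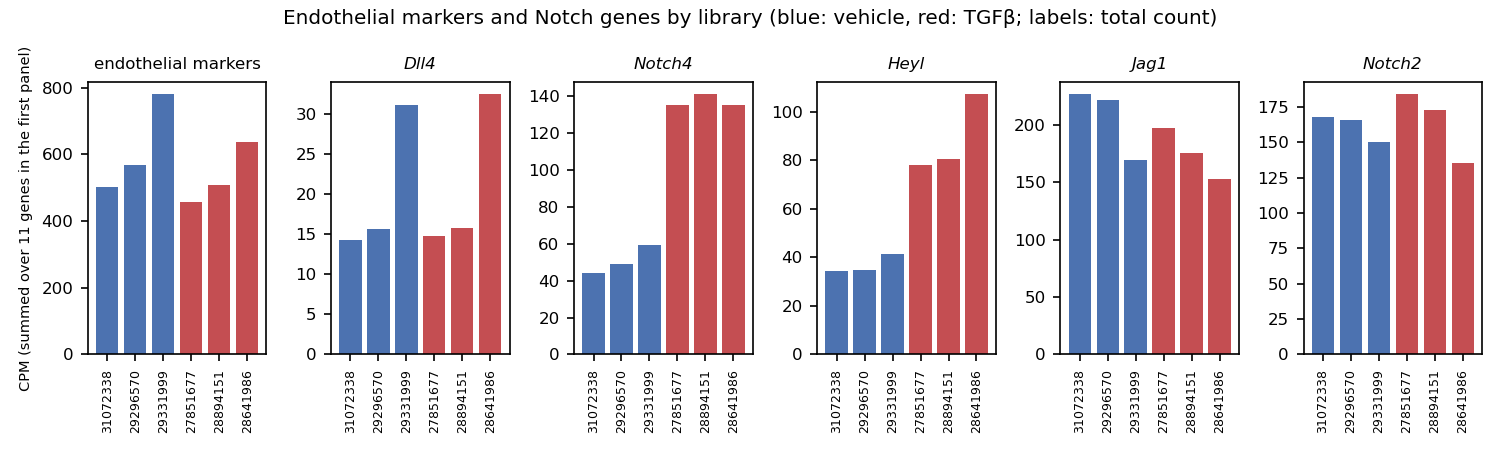
Summed level of 11 endothelial markers and levels of *Dll4*, *Notch4*, *Heyl*, *Jag1* and *Notch2* in CPM (vertical axes, starting at 0); each bar is a library named by its total count, blue for vehicle and red for TGFβ. The last bar of each colour has the highest endothelial sum of its group (779 and 638 CPM), and *Dll4* follows it with 31.2 and 32.5 CPM.

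Markers of other cell types were read the same way. The leukocyte sum was 238 to 340 CPM with vehicle and 207 to 308 CPM with TGFβ, highest in the same libraries as the endothelial sum. The pericyte sum was 1219 to 1297 CPM with vehicle and 1368 to 1405 CPM with TGFβ, most of it from *Pdgfrb*, which fibroblasts also express. This sum too was highest in the libraries of highest endothelial sum. There *Rgs5*, *Abcc9*, *Kcnj8*, *Cspg4* and *Mcam* were each highest in both groups, *Higd1b* with vehicle only and *Pdgfrb* in neither group. Of 6 pericyte markers tested, *Cspg4* rose (log2 fold change 1.45, edgeR adjusted p = 0.000614), the defining marker *Rgs5* had 0.15 (edgeR adjusted p = 0.779), and *Kcnj8* was under 1 CPM. *Higd1b*, the marker of the list that was not tested, was also under 1 CPM. The smooth muscle sum was 936 to 1110 CPM with vehicle and 1850 to 1982 CPM with TGFβ. Most of it came from *Tagln*, at a mean of 876 CPM with vehicle and 1722 CPM with TGFβ. Of the 6 markers 3 were higher (*Cnn1*, *Tagln* and *Smtn*), *Myh11* had a log2 fold change of -0.26 (edgeR adjusted p = 0.205) and *Myocd* was under 1 CPM. Whether these 3 genes rose in the fibroblasts or through more smooth muscle cells was not tested. The cardiomyocyte sum was 38.5 to 59.5 CPM with vehicle and 27.2 to 40.2 CPM with TGFβ, with 5 of its 6 genes under 1 CPM. The part of these cells in the changes of *Notch3*, *Notch4* and *Heyl* was not tested beyond the endothelial fits. Those fits cannot separate cell types whose markers were highest in the same libraries.

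The genes whose levels followed *Notch3* and *Notch4* most closely were found by Pearson correlation of log2 CPM over the 6 libraries, among 10373 genes of at least 5 CPM. For *Notch3* these were *Enpep*, which encodes glutamyl aminopeptidase (r = 0.9998), *Tns2*, which encodes the focal adhesion protein tensin 2 (r = 0.9997), and *Itga1*, which encodes an integrin subunit of collagen receptors (r = 0.9994). For *Notch4* they were *Ptk2*, which encodes focal adhesion kinase (r = 0.9979), *Ppfibp2*, which encodes a liprin (r = 0.9979), and *Syde2* (r = 0.9977). The 6 points fall into the groups of the treatment, so each r mainly describes genes that also differ between the groups. On the log2 scale the fold changes themselves ranged widely, from -0.45 for *Tns2* to -1.90 for *Enpep*, and from 0.42 for *Ptk2* to 0.91 for *Ppfibp2*.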

How the data were processed

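RNA-seq was performed on 3 vehicle and 3 TGFβ cultures. Per the methods and the submitters' processing notes, the authors enriched polyadenylated RNA with a stranded kit, sequenced single-end reads of 75 bases, aligned to mm10 and used DESeq2; the aligner, counter, annotation and strand setting are not given in the sources used here. The authors deposited whole-number counts per gene for each library, without normalization. The table also holds the authors' own comparison (mean, fold change, error, statistic and p-values), which was not used. Count columns give each library's group without a number, and total counts serve here as library names. Libraries held 27851677 to 31072338 counts. Replicate libraries differed by more than counting noise (chi-square per gene of 7.95 to 27.1), so each was counted as 1 sample.

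In R 4.3.3, edgeR 4.0.16 gave TMM factors, the filter (filterByExpr), the quasi-likelihood test and Benjamini-Hochberg adjustment over 14334 genes, with a threshold of 0.05. Standard errors were taken as log2 fold change over √F. Exact permutation tests over libraries, two-sided, used scipy 1.17.1. Levels per kilobase used merged exons of GENCODE M21 on GRCm38, the same build as mm10 (25086 of 25140 genes matched). Shared windows were counted in the longest transcript. Likeness used a pseudocount of 0.5 CPM. Alternatives were other scalings, DESeq2 1.42.0, limma-voom (limma 3.58.1), other filters, stricter thresholds, each library left out, another length and, added after the data were seen, a fit without the library of highest endothelial marker level in each group and one with the mean log2 CPM of 11 endothelial markers as a covariate. Where 14 alternatives are counted, these are the fits read at an adjusted p of 0.05, without the stricter thresholds and the other length. The steps were tested on simulated data.

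The rule for naming took in all 10 Notch genes, and of the other pathway genes those that passed and moved by 0.5 or more on the log2 scale. Some further pathway genes are named beside them. A result that this rule takes in is not reported here. The members and lists were chosen with earlier results of these data known. Promoters come from RefSeq (GRCm38.p6), and proteins were not analysed here. Counts on genes that overlap a Notch gene came to at most 0.774% of that gene's own.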

Additional observations from a re-analysis of the deposited data

How the results depend on the processing

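The calls of *Notch1*, *Notch3*, *Notch4*, *Hey2* and *Heyl* were the same in all 14 alternatives run. *Notch2* changed sign, from -0.0648 to 0.14 with each library left out and -0.0882 with the endothelial covariate, as did *Hey1*, from -0.17 to 0.14 with each library left out and -0.0621 without the libraries of highest endothelial level, and neither passed the test in any fit. Left-out libraries moved the difference in the *Hey1* share of target level between -0.465 and 0.0762 percentage points. They moved the count of Notch genes called between 5 and 7, beside 4489 to 5481 genes in all. Requiring an adjusted p under 0.01 left 3595 genes called in all and 13 of the pathway list. Requiring a log2 fold change beyond 1 left 971 genes in all, 3 of the 10 Notch genes and 3 of the pathway list. Another scaling moved the median log2 fold change of all genes to -0.02 at most. Using the longest transcript as length moved 13 of the levels per length by more than 1 SD, and with TGFβ put *Notch4* (20.8 CPM per kilobase) above *Heyl* (19.5). No paired analysis was possible because the columns of counts carry no replicate numbers. At 56 to 105 counts, *Jag2* had the lowest depth of the 10 genes.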
